A study of Mus musculus with 8 samples.

Results

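The clustered protocadherins are the adhesion genes of the Pcdha, Pcdhb and Pcdhg clusters, and they were taken here as every gene whose symbol starts with one of these names and goes on with an isoform name. Of the 48709 genes in the count tables, 58 met this rule, with 14 in the alpha, 22 in the beta and 22 in the gamma cluster. All 58 lie on the plus strand of chromosome 18 of the mouse genome mm10, where the alpha members span 36930184 to 37187661, the beta members 37264938 to 37524479 and the gamma members 37661793 to 37841873. Levels of these genes were compared between the cortex of 4 dcKO_hGFAP-Cre and 4 control mice at P3. The comparison shows how each isoform stood after BAF155 and BAF170, the scaffolding subunits of the BAF chromatin remodeling complex, were deleted.

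Clustered protocadherins are transmembrane proteins whose extracellular cadherin repeats bind the same isoform on another cell, and they are best known for self-avoidance of neurites, dendrite growth and neuronal survival. In the alpha and gamma clusters, each variable exon has its own promoter and is spliced to constant exons that all isoforms of the cluster share, whereas a beta gene is a separate transcription unit without such constant exons. Single neurons use a small, largely random set of the alternate isoforms under the control of distant enhancers, CTCF and cohesin, while the C-type isoforms at the end of the alpha and gamma clusters are used more uniformly.

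The dcKO_hGFAP-Cre mice carried the genotype BAF170 fl/fl; BAF155 fl/fl; hGFAP-Cre pos/+, so that the human GFAP promoter expresses the recombinase in radial glia of the dorsal telencephalon. The study's methods give the controls as BAF155 fl/+; BAF170 fl/+; Cre pos/+, while they are labelled as wild type in the sample records, and both groups were on a C57BL/6J background. The labels name the tissue as cortex, and cells that Cre did not reach remain in it. Nothing states that the samples of a group came from separate litters, so the p-values measure the spread between these samples. Values are given in CPM, the counts scaled to a common library total with TMM factors, and a gene was called at an adjusted p under 0.05 by the quasi-likelihood F test of edgeR, with p-values adjusted by the method of Benjamini and Hochberg over the 16525 genes tested.

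Libraries held 21126713 to 32110285 counts, of which 12688 to 23846 fell on the clustered protocadherins. The targeted genes fell in the mutant cortex, Smarcc1 (BAF155) from 159 ± 11.2 to 81.2 ± 5.90 CPM and Smarcc2 (BAF170) from 483 ± 14.7 to 283 ± 28.2 CPM (SD, n = 4 here and throughout). Of 7 neuronal markers, 6 fell, and their summed level was 8979.9 to 9826 CPM in control and 6591 to 7359 CPM in dcKO libraries. Of 5 markers of cortical identity, 4 fell, with sums of 1153 to 1292 CPM in control and 516 to 592 CPM in dcKO libraries. All 4 oligodendrocyte precursor markers fell, and 3 of 5 microglial markers rose. Of 5 markers of striatal projection neurons, 2 rose, with sums of 83.3 to 129 CPM in control and 319 to 564 CPM in dcKO libraries, and Ppp1r1b rose from 40.8 ± 6.17 to 308 ± 39.9 CPM. Of 5 choroid plexus markers, 1 rose and 0 fell. Their sums were 609 and 1170 CPM in dcKO replicates 1 and 2, 20.5 and 3.98 CPM in dcKO replicates 3 and 4, and 3.88 to 13.3 CPM in control libraries. In dcKO replicates 1 and 2 Ttr reached 584 and 1128 CPM, but it did not pass the test (adjusted p = 0.0568 by edgeR). Kl, at 1.24 and 1.10 CPM in these libraries, lay within the control range of 0.782 to 1.92 CPM. Of 6 markers of radial glia and astrocytes, 1 fell and 0 rose. Among them, Gfap had 79.3 to 89.5 CPM in control libraries. It was at 273 CPM in dcKO replicate 3 but at 24.2, 32.2 and 26.2 CPM in dcKO replicates 1, 2 and 4. In such bulk samples, fewer cells of a type and less RNA per cell cannot be told apart.

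Expression of the alpha cluster was lower in the dcKO cortex, the summed beta level differed between the groups by less than the spread between replicates, and most gamma members were lower in part of the dcKO libraries. Of the 53 members that passed the filter on low counts, 8 were called lower and 1 was called higher in the dcKO cortex, and 44 did not pass the test. By cluster, 4 of 12 alpha, 0 of 21 beta and 4 of 20 gamma members were lower, against a background of 18.9% of all genes tested. Higher expression was called for 1 beta member and for no alpha or gamma member, against a background of 18.6%. The share of members called lower over all 3 clusters, 15.1%, was thus near the background, while the share called higher was 1.89%. At an unadjusted p under 0.05, 14 of the 53 members were lower and 2 were higher. Over all 16525 genes tested, 3803 were lower and 4001 were higher at this level. The share of members that were lower was thus again near the background, and the share that were higher was below it. The median log2 fold change was -0.20 over the alpha, 0.03 over the beta and -0.32 over the gamma members tested, beside 0.02 over all genes tested.

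**Figure D1:**
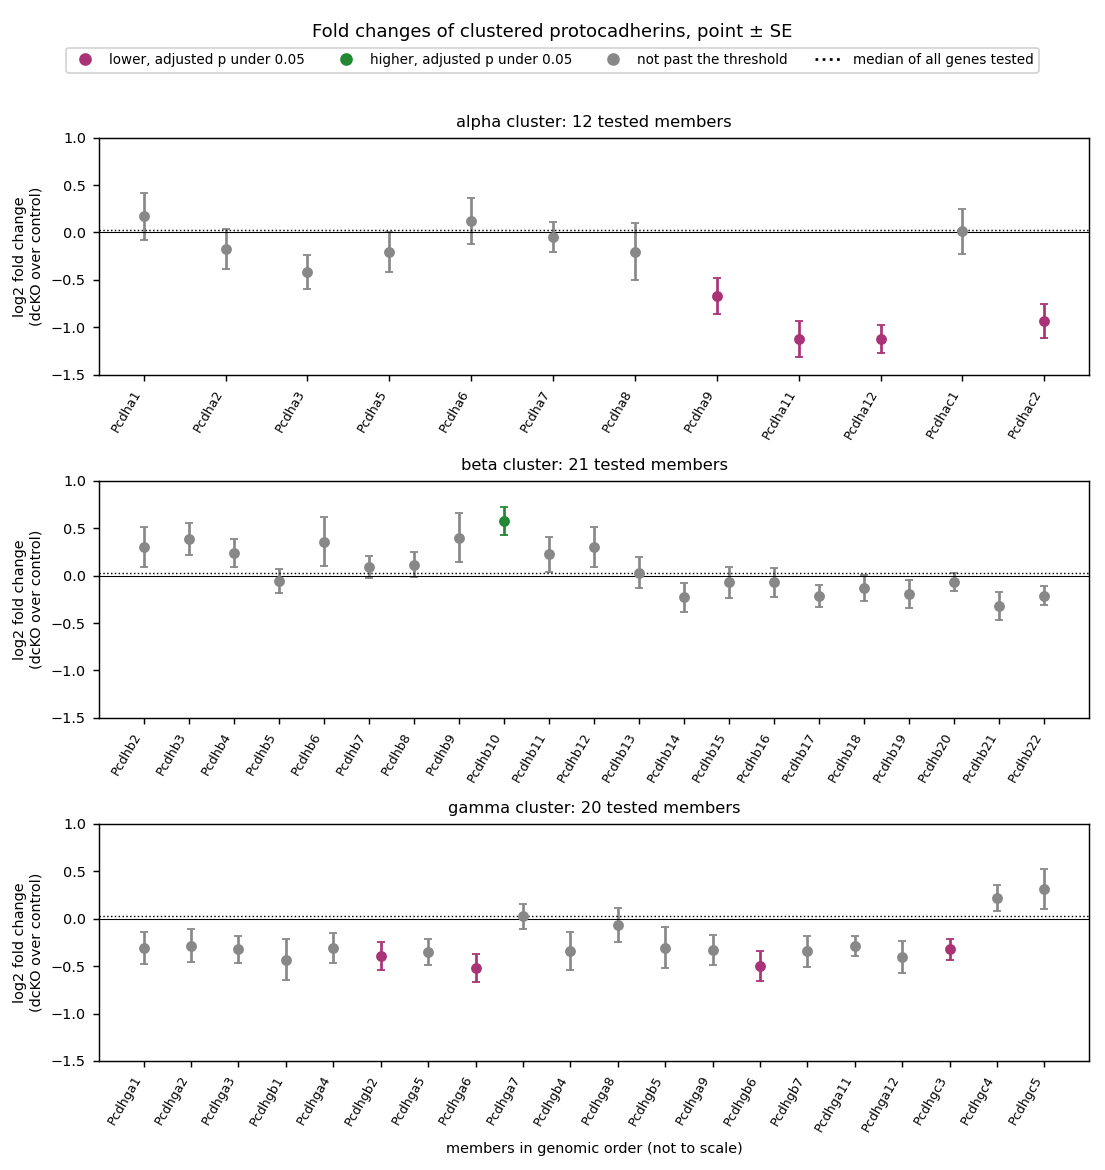
Log2 fold change (dcKO over control, vertical axis) of each of the 53 tested members, in genomic order along the alpha, beta and gamma clusters (horizontal axis, not to scale), with bars for the standard error. Purple points are lower and the green point is higher at an adjusted p under 0.05, grey points did not pass, and the dotted line is the median of all genes tested, 0.02. The calls of the alpha cluster sit in its last 5 members, and the 17 alternate gamma members lie between -0.52 and 0.02.

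Summed over subfamilies, the alternate alpha members held 94.8, 89.9, 95.4 and 90.3 CPM in control replicates 1 to 4 and 79.3, 48.9, 56.4 and 87.4 CPM in dcKO replicates 1 to 4. Both alpha C-type members together held 49.2 to 61.5 CPM in control and 20.5 to 40.2 CPM in dcKO libraries. Every dcKO library was below every control library for both alpha sums, and dcKO replicates 2 and 3 were the lowest. The 22 beta members summed to 197 ± 13.2 CPM in control and 199 ± 7.44 CPM in dcKO cortex, with overlapping groups. The gamma A and gamma B sums were 178 ± 9.49 and 64.7 ± 6.08 CPM in control and 145 ± 26.7 and 48.8 ± 10.6 CPM in dcKO cortex. For both sums the groups overlapped, because dcKO replicate 4 lay within the control range. The gamma C-type sum was 137.9 ± 12.01 CPM in control and 134 ± 23.4 CPM in dcKO cortex.

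**Figure D2:**
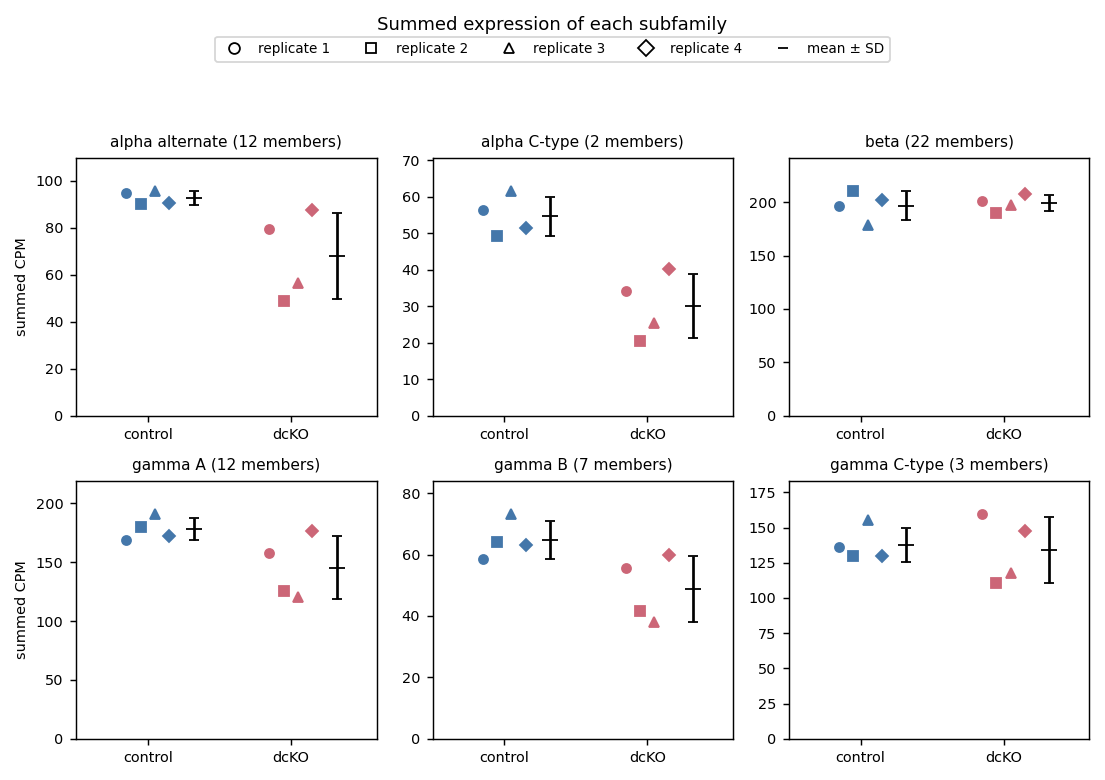
Summed CPM (vertical axis, from 0) of the members of each subfamily in 4 control and 4 dcKO libraries, with one symbol per replicate and the mean ± SD beside the points. The alpha sums separate the groups, the beta sums overlap at about 200 CPM, and dcKO replicates 2 and 3 are the lowest libraries in both alpha and all gamma panels.

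Within the alpha cluster, the calls were Pcdha9, Pcdha11, Pcdha12 and Pcdhac2. In the annotation, 2 identifiers carry the symbol Pcdha11, and the tested one (ENSMUSG00000007440, 37005203 to 37187657) lies at the start that RefSeq's table for GRCm38.p6 gives to Pcdha10. Pcdha11 with this identifier stood at 6.90, 7.44, 5.64 and 7.19 CPM in control and at 4.02, 2.20, 2.80 and 3.41 CPM in dcKO replicates 1 to 4. Pcdha12 (37020149 to 37187657) stood at 16.8, 12.9, 17.4 and 12.6 CPM in control and at 6.88, 5.93, 6.96 and 7.61 CPM in dcKO replicates. The groups did not overlap for either gene, and Pcdha12 had nearly the same level in all 4 mutants. Both genes fell by 54.1%, with a log2 fold change of -1.12 (SE 0.19, adjusted p = 0.000757) for Pcdha11 and of -1.12 (SE 0.14, adjusted p = 0.000106) for Pcdha12 in edgeR's quasi-likelihood test. Under all 18 alternative settings tried, both remained past the threshold.

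Pcdha9 (36997880 to 37187657), the alternate alpha member with the highest control level, stood at 17.8, 19.4, 22.8 and 17.2 CPM in control and at 13.7, 8.18, 10.4 and 16.2 CPM in dcKO replicates 1 to 4. All mutants lay below all controls, with dcKO replicate 4 just below the lowest control. Its log2 fold change was -0.67 (SE 0.19, adjusted p = 0.0144 by edgeR). Without dcKO replicates 1 and 2, the libraries high in Ttr, Pcdha9 no longer passed (log2 fold change -0.53, adjusted p = 0.0904 by edgeR), and 3 alpha members were called.

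Pcdhac2 (37143503 to 37187657), a C-type isoform known for its role in the even spacing of serotonergic axons, was the most abundant alpha member. It stood at 52.8, 46.5, 58.2 and 48.5 CPM in control and at 30.6, 18.6, 22.8 and 36.0 CPM in dcKO replicates 1 to 4. The groups did not overlap, and Pcdhac2 fell by 47.5% (log2 fold change -0.93, SE 0.18, adjusted p = 0.00218 by edgeR). The other alpha C-type isoform, Pcdhac1 (37090013 to 37187657), had 3.12 ± 0.337 CPM in control and 3.13 ± 1.05 CPM in dcKO cortex. Its log2 fold change of 0.01 had an approximate 95% interval from -0.45 to 0.47, so that a change of up to about this size was not detectable. The sign of this small difference for Pcdhac1 turned under several alternatives.

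The remaining alpha members did not pass the test, with log2 fold changes from -0.42 to 0.17. Among them, Pcdha3 (36946105 to 37187657) came closest, at 13.6, 11.8, 11.5 and 11.6 CPM in control and 10.7, 6.31, 7.54 and 11.7 CPM in dcKO replicates 1 to 4. The highest mutant overlapped the controls, and the adjusted p was 0.086 (log2 fold change -0.42, edgeR). It passed with the replicate number as a block (adjusted p = 0.0433) and without dcKO replicate 4 (adjusted p = 0.0239), for a count of 5 alpha members lower. Over the 12 tested alpha members, 10, 11 and 6 had a dcKO level below control in sequencing lanes 5, 6 and 7. In the 4 called members every dcKO library was below every control library. A lower dcKO level in each of the 3 lanes follows from this and adds nothing to their calls. Lanes 6 and 7 hold 1 library of each group, so no test could be made within them. Neuronal and cortical markers fell in the same libraries, and their part in the alpha result was not tested. Of 3 serotonergic markers, Fev was at 0 counts in all controls, Slc6a4 had 3.79 ± 0.749 CPM in control and 3.41 ± 1.05 CPM in dcKO cortex, and Tph2 fell from 1.68 ± 0.151 to 0.812 ± 0.542 CPM (adjusted p = 0.0366 by edgeR).

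**Figure D3:**
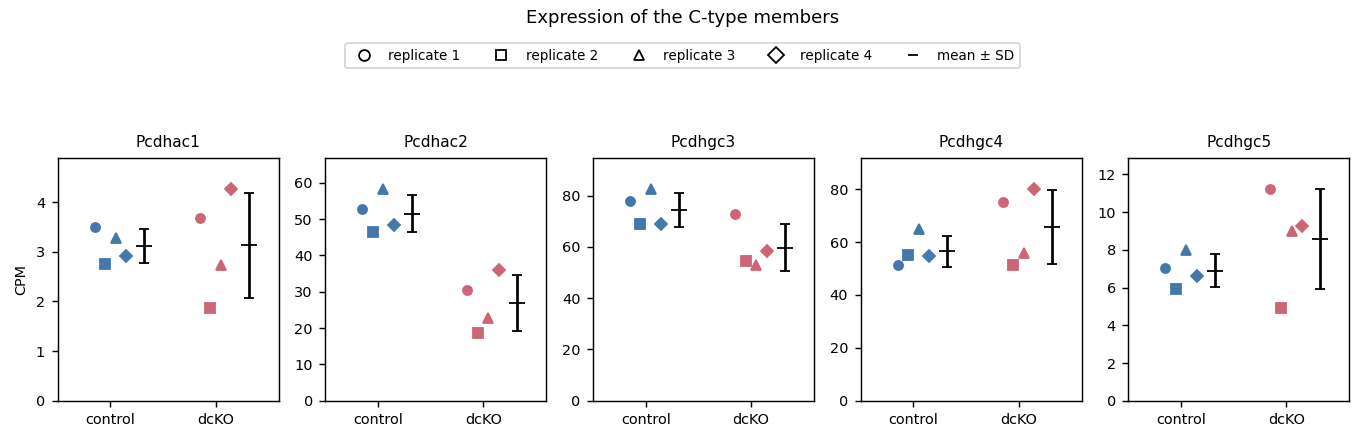
CPM (vertical axes, each from 0) of the 5 C-type members in 4 control and 4 dcKO libraries, with one symbol per replicate and the mean ± SD beside the points. Only Pcdhac2 separates the groups, from 46.5 to 58.2 CPM in control down to 18.6 to 36.0 CPM in dcKO libraries.

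The order of the isoforms along the alpha cluster ran with their fold changes. Over the 10 tested alternate members, Spearman's rho between order and log2 fold change was -0.71, with a median of -0.17 in the first 5 and -0.67 in the last 5 members. These genes share the same 8 libraries and their constant exons, so the coefficient is a description and not a test.

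The beta cluster showed 1 call. Pcdhb10 (37411664 to 37414514) stood at 3.77, 3.55, 3.52 and 3.71 CPM in control and at 4.96, 4.70, 5.97 and 6.01 CPM in dcKO replicates 1 to 4. All mutants were above all controls, and the rise was 48.9% (log2 fold change 0.57, SE 0.15, adjusted p = 0.00983 by edgeR). Pcdhb10 passed under all 18 alternatives. A second beta member was called without control replicate 1 or 2 (Pcdhb1) and without dcKO replicate 3 (Pcdhb3), for a count of 2.

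Pcdhb3 (37300799 to 37304585) was at 8.01, 8.53, 5.94 and 5.62 CPM in control and 10.3, 9.53, 7.44 and 9.33 CPM in dcKO replicates 1 to 4. The groups overlapped through dcKO replicate 3 (log2 fold change 0.39, adjusted p = 0.0857 by edgeR). Pcdhb3 passed with the lane in the fit (adjusted p = 0.0367) and with library totals (adjusted p = 0.0353). At the other end of the cluster, Pcdhb21 (37513621 to 37518325) went from 5.48 ± 0.549 to 4.38 ± 0.357 CPM and Pcdhb22 (37517871 to 37524479) from 19.7 ± 1.99 to 17.0 ± 0.904 CPM. In both genes all mutants lay below all controls, but neither passed the test, with an adjusted p of 0.100 for Pcdhb21 and 0.129 for Pcdhb22 (edgeR). The exons of these 2 neighbours overlap, so reads there cannot be given to one of them. The members with the highest level per kb did not pass the test. Pcdhb7 had 19.8 ± 0.839 and 21.0 ± 3.25 CPM, Pcdhb20 had 18.5 ± 1.49 and 17.6 ± 0.617 CPM, and Pcdhb17 had 19.2 ± 2.25 and 16.5 ± 1.23 CPM in control and dcKO cortex. Their log2 fold changes were 0.09, -0.07 and -0.22, with approximate 95% intervals from -0.14 to 0.31, from -0.26 to 0.13 and from -0.44 to 0.00.

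Along the beta cluster, fold changes again fell from the first to the last gene. Over the 21 tested members, Spearman's rho between order and log2 fold change was -0.76. Of the first 10 members 1 had a negative log2 fold change, with a median of 0.27, and of the last 11 members 9 did, with a median of -0.13. Except for Pcdhb10, the 21 beta members did not pass the test one by one, and the coefficient is a description over genes measured in the same 8 libraries. Over the 17 tested alternate gamma members, the corresponding rho was -0.12.

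Over all clusters, 8 members had every dcKO library below every control library, 4 in the alpha, 2 in the beta and 2 in the gamma cluster, against a background of 17.7% of all genes tested. In 1 member, Pcdhb10, every dcKO library was above every control library, against a background of 16.7%.

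**Figure D4:**
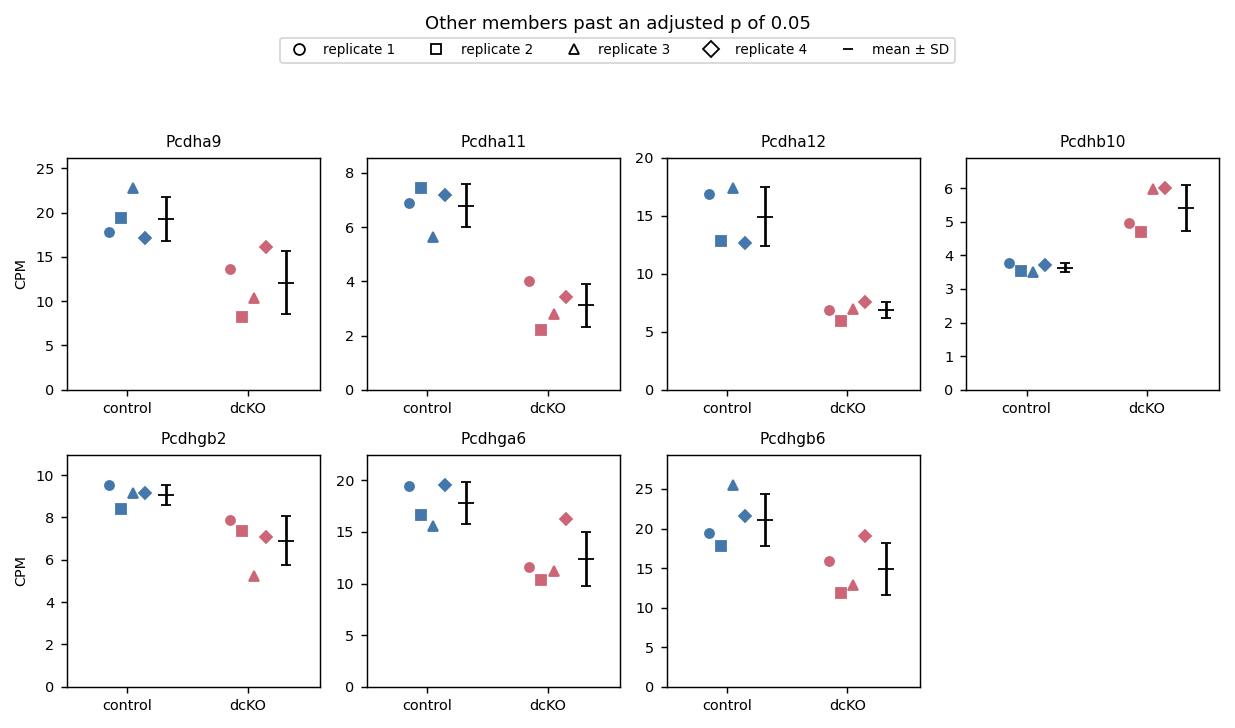
CPM (vertical axes, each from 0) of the 7 called members that are not C-type in 4 control and 4 dcKO libraries, with one symbol per replicate and the mean ± SD beside the points. The groups separate for Pcdha9, Pcdha11, Pcdha12, Pcdhb10 and Pcdhgb2, and overlap through dcKO replicate 4 for Pcdhga6 and Pcdhgb6.

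In the gamma cluster, Pcdhgb2, Pcdhga6, Pcdhgb6 and Pcdhgc3 were called lower. Pcdhga6 (37707039 to 37841873) stood at 19.4, 16.7, 15.5 and 19.5 CPM in control and at 11.6, 10.4, 11.3 and 16.2 CPM in dcKO replicates 1 to 4. Pcdhgb6 (37742094 to 37841873) stood at 19.4, 17.8, 25.5 and 21.6 CPM in control and at 15.9, 11.9, 12.9 and 19.1 CPM in dcKO replicates. In both genes dcKO replicate 4 was the highest mutant and lay above the lowest control. The log2 fold changes were -0.52 (SE 0.15, adjusted p = 0.0156) for Pcdhga6 and -0.50 (SE 0.16, adjusted p = 0.0267) for Pcdhgb6 by edgeR. Pcdhgb2 (37689828 to 37841873) went from 9.04 ± 0.479 to 6.89 ± 1.16 CPM with no overlap, and its adjusted p of 0.0467 was just inside the threshold (log2 fold change -0.39, SE 0.14, edgeR).

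Pcdhgc3 (37806364 to 37841873), a C-type isoform known to support dendrite growth of cortical neurons, had the highest mean level of all clustered protocadherins in control but not in dcKO cortex. It stood at 77.7, 69.0, 82.4 and 68.9 CPM in control and at 72.8, 54.4, 52.7 and 58.6 CPM in dcKO replicates 1 to 4. The groups overlapped through dcKO replicate 1, and Pcdhgc3 fell by 19.98% (log2 fold change -0.32, SE 0.11, adjusted p = 0.0351 by edgeR). Its neighbour Pcdhgc4 (37815079 to 37841873), an isoform known to be needed for the survival of cortical interneurons, did not pass the test. It stood at 51.3, 55.1, 65.0 and 54.6 CPM in control and at 75.2, 51.5, 55.7 and 79.9 CPM in dcKO replicates 1 to 4. The mutants split around the control range, with replicates 1 and 4 above it. The log2 fold change of 0.22 had an approximate 95% interval from -0.06 to 0.49. Pcdhgc5 (37819513 to 37841873), the last C-type isoform of the cluster, had 6.90 ± 0.871 CPM in control and 8.58 ± 2.64 CPM in dcKO cortex (log2 fold change 0.31, adjusted p = 0.262 by edgeR). It passed only without dcKO replicate 2, with a log2 fold change of 0.50 (adjusted p = 0.0281).

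Of the 20 gamma members tested, 17 had a negative log2 fold change, and those that did not pass lay between -0.43 and 0.31. Pcdhga11 (37755731 to 37841873) came closest to the threshold, from 23.4 ± 2.12 to 19.2 ± 2.04 CPM (log2 fold change -0.29, adjusted p = 0.0551 by edgeR). With the lane as a term in the fit, Pcdhga11 (adjusted p = 0.0404) and Pcdhga5 (adjusted p = 0.0499) passed as well, for a count of 6 gamma members lower. The number of gamma calls rested on single libraries. It was 0 without dcKO replicate 2, 1 without dcKO replicate 3, 1 without control replicate 3, 2 without control replicate 4 and 7 without dcKO replicate 4. Without dcKO replicates 1 and 2, Pcdhgc3 was the single gamma call. Within lanes, 18 of 20 members were lower in dcKO in lane 5, 19 in lane 6 and 9 in lane 7, where the median log2 difference was 0.03. DESeq2 also called 6 gamma members lower, and scaling by library totals left 1. By gene, Pcdhga6 passed under 15, Pcdhgb6 and Pcdhgc3 under 12 and Pcdhgb2 under 6 of the 18 alternatives.

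The dcKO libraries differed from each other in the alpha and gamma clusters more than the controls did. Whether this was particular to these clusters was not tested. Over all genes tested, the chi-square per degree of freedom between libraries was 18.1 to 52.9 for dcKO pairs and 9.24 to 22.3 for control pairs. These ranges overlap, and the measure, taken on raw counts, rises with library depth. The shares of all genes with a larger spread in dcKO, or with the order of replicates given below, were not computed. The counts of members that follow therefore have no background beside them. The standard deviation of log2 CPM was larger in dcKO than in control for 10 of 12 alpha, 11 of 21 beta and 20 of 20 gamma members tested. Its median was 0.17 in control and 0.43 in dcKO for alpha, 0.17 and 0.18 for beta, and 0.16 and 0.32 for gamma members. The order was shared: dcKO replicates 2 and 3 were both below replicates 1 and 4 in 9 of 12 alpha, 18 of 20 gamma and 5 of 21 beta members. Among the dcKO libraries, replicate 2 was the lowest in 21 and replicate 4 the highest in 22 of these 32 alpha and gamma members. The summed neuronal markers were 6591, 7016, 7359 and 6873 CPM in dcKO replicates 1 to 4. The striatal marker sums of the same libraries were 531, 319, 564 and 371 CPM, all above the controls, and Ttr was highest in replicates 1 and 2. The part of these markers in the spread between the mutants was not tested.

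Shares of counts within a library need no scaling between libraries. The C-type isoforms took 35.4% to 39.2% of the alpha counts in control and 29.5% to 31.5% in dcKO libraries. In the gamma cluster they took 34.7% to 37.4% of the counts in control and 38.4% to 42.7% in dcKO libraries. Thus the C-type share was lower in every mutant of one cluster and higher in every mutant of the other. Its means were 37.03% and 30.6% for alpha and 36.2% and 40.9% for gamma. The single C-type isoforms did not move together. In alpha, the share of Pcdhac2 fell from 34.9% to 27.4% and that of Pcdhac1 rose from 2.11% to 3.15%, without overlap. In gamma, the share of Pcdhgc4 rose. Those of Pcdhgc3 (19.6% and 18.4%) and Pcdhgc5 (1.81% and 2.61%) overlapped between groups. The alpha cluster as a whole held 19.2% to 21.3% of all clustered protocadherin counts in control and 12.9% to 17.7% in dcKO libraries, while the beta and gamma shares overlapped between groups.

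Among single isoforms, 10 of 12 alpha shares did not overlap between groups, 3 lower (Pcdha11, Pcdha12 and Pcdhac2) and 7 higher in dcKO. Shares within a cluster have no background over all genes, so this count is a description. These 10 include Pcdha3, which held 8.24% ± 0.694 of the alpha counts in control and 9.22% ± 0.134 in dcKO cortex although its CPM was lower. Shares within a cluster sum to a fixed total, so the fall of abundant isoforms such as Pcdhac2 raises the others. By CPM, 0 tested alpha members had every dcKO library above every control library. In the gamma cluster 1 of 20 shares did not overlap, that of Pcdhgc4, with 14.8% ± 0.586 in control and 19.9% ± 0.974 in dcKO cortex. In the beta cluster 2 of 21 did not, Pcdhb10 higher and Pcdhb21 lower in dcKO.

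The ratios between C-type isoforms were computed after their levels were known. The Pcdhac2 to Pcdhac1 ratio was 15.1, 16.8, 17.7 and 16.6 in control and 8.31, 10, 8.34 and 8.45 in dcKO replicates 1 to 4. The Pcdhgc3 to Pcdhgc4 ratio was 1.52, 1.25, 1.27 and 1.26 in control and 0.968, 1.06, 0.947 and 0.733 in dcKO replicates 1 to 4. All mutants were below all controls for both ratios, including dcKO replicate 1, in which Pcdhgc3 itself lay within the control range. Since the levels that prompted them were known, these ratios are given as a description without a test. The ratios of Pcdhgc3 and of Pcdhgc4 to Pcdhgc5 overlapped between groups.

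**Figure D5:**
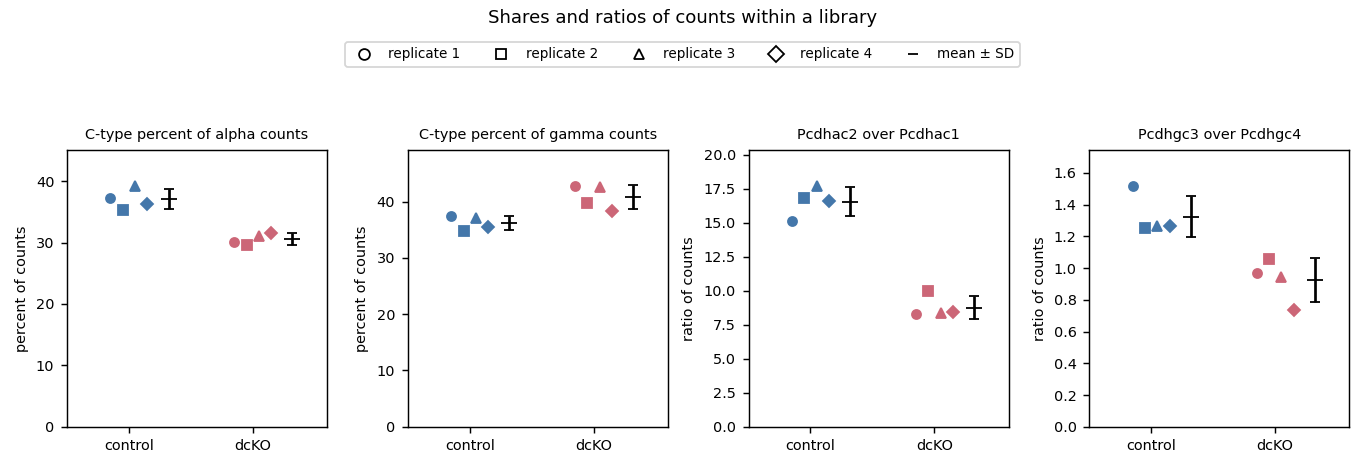
The left 2 panels show the percent of alpha and of gamma counts that fell on C-type isoforms, and the right 2 panels show the count ratios of Pcdhac2 to Pcdhac1 and of Pcdhgc3 to Pcdhgc4 (vertical axes from 0), in 4 control and 4 dcKO libraries with the mean ± SD. The alpha share and both ratios are lower and the gamma share is higher in all 4 mutants.

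Levels between genes were compared per kb of exon that no other annotated gene shares, since reads on the constant exons cannot be given to an isoform. On this scale Pcdhgc3 was highest in control cortex, with 40.9 ± 3.67 CPM per kb, followed by Pcdhga11 with 18.6 ± 1.69, Pcdhac2 with 17.0 ± 1.71 and Pcdhgc4 with 16.2 ± 1.70 CPM per kb. The last 3 lie within the spread of each other, and the value of Pcdhga11 rests on 1256 unshared bases. Over all exon bases the order changed, with Pcdhgc3 at 13.5, Pcdhgc4 at 10.1, Pcdhac2 at 8.75 and Pcdhga11 at 4.92 CPM per kb, the last below Pcdhb7 at 5.65 CPM per kb. In the beta cluster Pcdhb7 led with 5.65 ± 0.240 CPM per kb, followed by Pcdhb20 with 5.19 ± 0.420. Among alternate alpha members, Pcdha9 and Pcdha12 had 7.77 ± 1.01 and 7.68 ± 1.30 CPM per kb. The medians of the control levels were 3.74 CPM per kb over the tested alpha, 1.86 over the beta and 5.43 over the gamma members, and 1.61, 1.78 and 2.51 CPM per kb over all exon bases, so that the order of the alpha and beta clusters turned. The counting of reads that match several genes is not stated, so alpha and gamma counts, and those of the closely related beta genes, remain uncertain.

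The filter on low counts removed 5 members. Pcdhga10 had 0 counts in all 8 libraries, and its variable exon lies wholly under the transcript Gm26672, so that none of its exon bases were unshared. Pcdha4 had 10 and the second Pcdha11 identifier (ENSMUSG00000102206) had 9 counts over all libraries, with 404 and 1268 unshared exon bases. Pcdhgb8, annotated as a polymorphic pseudogene, had 27 counts in all. Pcdhb1 (37264938 to 37267525), the first beta gene, had 2, 6, 1 and 2 counts in control and 9, 18, 8 and 16 counts in dcKO replicates 1 to 4. Its CPM overlapped between the groups. Without the filter, Pcdhb1 was called higher with a log2 fold change of 2.02 (adjusted p = 0.0037 by edgeR), and DESeq2 gave an adjusted p of 0.0196. At this depth, 3 counts correspond to 0.0934 to 0.142 CPM, so levels of these genes carry large counting error.

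Genes reported to act on the promoters or chromatin of the clusters were examined next. Of 20 such genes, 2 fell and 4 rose, against backgrounds of 18.9% lower and 18.6% higher over all genes tested, so these counts are no result about the list. Its median log2 fold change was -0.03. The cohesin subunit genes Smc1a and Smc3 fell by 0.39 and 0.20 on the log2 scale, and those of Stag2 and Rad21 rose by 0.38 and 0.20. Rest, a repressor of neuronal genes, rose by 0.43, and Ehmt2, a histone methyltransferase gene, rose by 0.24 on the same scale. Ctcf, the insulator protein gene, had 117 ± 4.87 CPM in control and 114 ± 5.18 CPM in dcKO cortex. Of the 5 with the smallest p, Smc1a and Stag2 passed under all 18 alternatives and Rest under 16, but Rad21 passed under 9 and Ehmt2 under 8. The lower count was 1 without control replicate 2, 3 or 4 or without dcKO replicate 1, 2 or 3, and the higher count was 2 without control replicate 3 or 4 or without dcKO replicate 1 or 2.

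Genes of proteins reported to bind, process or act below clustered protocadherins were mostly lower. Of 21, 14 fell and 1 rose, against backgrounds of 18.9% and 18.6%, with a median log2 fold change of -0.32. Ptk2b, the focal adhesion kinase relative PYK2 that alpha and gamma protocadherins bind, had 125, 130, 136 and 140 CPM in control and 58.3, 35.6, 60.3 and 62.0 CPM in dcKO replicates 1 to 4. All mutants lay below all controls, with a log2 fold change of -1.29 (SE 0.15, adjusted p = 7.17e-05 by edgeR). Adam10, the sheddase that cleaves protocadherins, fell by 0.51 and Nlgn1, a postsynaptic adhesion gene, by 0.61 on the log2 scale. Cyfip2 and Nckap1, subunits of the WAVE complex that regulates actin, fell by 0.52 and 0.39. Pdcd10 rose by 0.43 and was the only riser in the fit of all libraries. A second gene was called higher without dcKO replicate 4. Neuronal markers fell in the same libraries, and their part in this count was not tested.

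Of 80 other annotated genes within 1 Mb of the clusters, 38 were tested, and 9 fell and 6 rose, near the backgrounds of 18.9% and 18.6%, with a median log2 fold change of -0.07. Pcdh12, a protocadherin of endothelial cells outside the clusters, went from 7.91 ± 1.28 to 2.95 ± 0.911 CPM (log2 fold change -1.43, adjusted p = 0.000348 by edgeR). Of 4 endothelial markers 3 fell as well, with sums of 141 to 185 CPM in control and 82.3 to 141 CPM in dcKO libraries. Spry4, an inhibitor of receptor tyrosine kinase signaling, fell by 0.91, Zmat2 by 0.50 and the growth factor gene Hbegf by 0.46 on the log2 scale. Hars2, a mitochondrial tRNA synthetase gene, rose by 0.42. The lower count was 5 without control replicate 3, and the higher count was 3 without control replicate 1 or dcKO replicate 1 and 2 without control replicate 2 or 3 or dcKO replicate 2.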

How the data were processed

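RNA sequencing of 4 control and 4 dcKO_hGFAP-Cre cortex samples was used. Per the study's methods, the authors made libraries with a TruSeq RNA kit, which does not mark strand, aligned the reads to mm10 and counted them per gene with featureCounts. They deposited raw counts per gene without normalization. The aligner, gene annotation and treatment of reads matching several genes are not given in the sources used here.

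Identifiers were matched to GENCODE vM21 symbols (48349 of 48709). Counts were tested with edgeR 4.0.16 (R 4.3.3; quasi-likelihood F test, robust, TMM scaling, filterByExpr with a minimum count of 10), with p-values adjusted over 16525 genes. Standard errors were derived by dividing each fold change by the root of its F statistic. Alternatives used DESeq2 1.42.0, limma-voom 3.58.1, other scalings and filters, the replicate number or the lane in the fit, and each library left out in turn. Fits were tested on simulated data. Figures were drawn with matplotlib 3.10.9.

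Members and gene lists were chosen with earlier results of these data known. Named are the targeted genes, the C-type members, the 5 members with the smallest p and the 3 with the highest control level per kb in each cluster, and up to 5 called genes of each list. Other members were named after their values were seen. Library shares and ratios were chosen after seeing the data. No 2 replicates agreed within sampling noise (chi-square per degree of freedom of 9.24 or more).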

Additional observations from a re-analysis of the deposited data

Results flagged for a closer look

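In groups of 4 libraries, a gene was marked for a closer look where 1 library lay far from the other 3 by Dixon's test at the 95% level. Chance marks about 1 in 20 such groups, and of the 92 examined 4 were marked, where 4.6 would be so by chance. Pcdha3 stood at 13.6 CPM in control replicate 1 and between 11.5 and 11.8 CPM in the other controls. Pcdhb22 stood at 22.6 CPM in control replicate 2 and between 18.4 and 18.9 CPM in the other controls. Ptk2b stood at 35.6 CPM in dcKO replicate 2, whereas the other mutants held 58.3 to 62.0 CPM. Zmat2 stood at 115 CPM in control replicate 1 and between 137 and 139 CPM in the other controls.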

How the results depend on the processing

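Over 18 alternatives, 595 of 666 fold changes of the 37 named genes kept their direction and their side of the threshold, 50 lost the call, 10 gained it and 11 changed sign. The sign changes were those of the Pcdhac1 log2 fold change with DESeq2 (-0.00284), limma-voom (-0.0339), the replicate block (-0.0313), the lane (-0.00940) and without control replicate 2 or 4 or dcKO replicate 1 or 4 (-0.16 to 0.18 over libraries left out), of the Pcdhb7 log2 fold change without dcKO replicate 1 (-0.0197) and without both libraries high in Ttr (-0.096), and of the Pcdhb20 log2 fold change with library totals (0.055). None of these passed in either direction, and the cause was not tested.

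Scaling by library totals raised the median over all genes tested by 0.12, to 0.15 on the log2 scale. This scaling gave 2 beta members higher, 1 gamma member lower, 1 regulator lower and 7 higher, 9 partners lower and 2 higher, and a beta median of 0.15. A beta count of 2 also arose without the filter on low counts, with DESeq2 and with the lane in the fit. The regulator count was 1 lower without the filter, with 10 counts in every sample, with limma-voom and with the lane, and 2 higher without the filter. Without both libraries high in Ttr, counts were 1 gamma member lower, 1 regulator lower and 1 higher, 7 partners lower and 0 higher, and 4 neighbours lower and 1 higher, with a beta median of -0.044. At an adjusted p under 0.01, they were 0 gamma members lower, 1 regulator lower and 1 higher, and 5 neighbours lower and 1 higher. A required log2 fold change of 1 or more in size left 2 alpha members lower and 0 beta higher or gamma lower, 0 regulators in either direction, 1 partner lower and 0 higher, and 2 neighbours lower and 0 higher.

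With each library left out, calls ranged from 4 to 5 alpha members lower, 1 to 2 beta higher, 0 to 7 gamma lower, 0 to 1 gamma higher (Pcdhgc5, without dcKO replicate 2), 1 to 3 regulators lower and 2 to 5 higher, 10 to 14 partners lower and 1 to 2 higher, and 5 to 11 neighbours lower and 2 to 8 higher. The beta median ranged from -0.0197 to 0.083. Levels per kb over all exon bases were lower for alpha and gamma members, with Pcdhgc3 at 13.5 CPM per kb, and were the same for the 19 beta members that share no exon base.

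Samples with the same replicate number did not deviate together in every pair (correlations of 0.17, -0.068, 0.21 and -0.024), so the numbers were not taken as pairs. With the replicate number as a block, calls were 5 alpha and 3 gamma members lower, 1 beta higher, 1 regulator lower and 2 higher. The motif search in promoters was not run. Low counts limit what can be said of the 5 members that were not tested.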
